A study of Mus musculus with 35 samples.

Results

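The p53 target genes described here are Cdkn1a, Ccng1, Mdm2, Bbc3, Bax, Aen, Phlda3, Zmat3, Trp53inp1 and the gene of p53 itself, Trp53. They are 10 genes chosen by name from the 54393 genes of the deposited RPKM table (reads corrected for gene length and depth), and 9 of them are also among the 9239 genes with deposited counts. Trp53inp1 is not among the 9239 and was followed on RPKM. The p53 protein is a transcription factor that is held at a low level by the ubiquitin ligase Mdm2 and accumulates under DNA damage and other stress. It binds a response element made of a pair of decamers near its target genes, and the products of these genes stop the cell cycle, repair DNA, start apoptosis or, like Mdm2, feed back on p53. The members are taken below in the order of cell cycle arrest, feedback, apoptosis and other roles.

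The 35 libraries hold poly(A) RNA of N2a Flp-In rtTA cells, a mouse neuroblastoma line made to take up an inducible transgene. There were 2 lines, each with an integrated FLAG-tagged cDNA of the RNA-binding protein Chtop under doxycycline control: mEx5 carries the cDNA without exon 5 and pEx5 the cDNA with it. Rescue cells received Chtop siRNA and doxycycline, knockdown cells received Chtop siRNA alone, and control cells received a non-targeting siRNA pool. The Chtop siRNA was a single product, and no group combined the control siRNA with doxycycline. Medium was changed at 24 h and cells were harvested at 72 h after transfection, 20% of the cells were kept as total lysate, and the rest was separated into nuclei and cytoplasm. Each of the 18 groups had 2 biological replicates, except the cytoplasmic pEx5 control with 1 library, so that a condition had 4 libraries per fraction over both lines and the cytoplasmic control had 3.

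The summed counts of a library ranged over 11681781 to 28705620 for nuclei, 19478702 to 40105458 for cytoplasm and 20652832 to 36102129 for total lysate. In total lysate, 14 of 17 neuroblastoma and sympathetic neuron markers reached 1 RPKM, against 1 of 5 fibroblast and 0 of 3 blood markers, and 3 of the 17 (Th, Nefl and Nefm) stayed below it. Chtop itself averaged 228 ± 46.6 CPM, counts scaled to library size, in rescue, 27.9 ± 7.75 in knockdown and 137 ± 7.10 in control total lysates (SD, n = 4 each). Mitochondrially encoded transcripts took 0.628% to 1.61% of the nuclear and 1.90% to 3.31% of the cytoplasmic counts. The labels name no spike-in, and every difference on counts below is relative to the typical gene of its fraction. Differences on RPKM were not centred on the typical gene, so the median of all genes with counts is given beside several of them. Fewer cells of a kind and less RNA per cell cannot be told apart in these bulk samples.

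The response element that defines this pathway was looked for near the starts of the members. In RefSeq windows on GRCm38.p6 that run from 250 bases before to 50 bases after a gene's start, 8 of the 10 members (all but Zmat3 and Trp53inp1) were matched to 12 windows, some of them overlapping. The p53 consensus response element was searched on both strands as 2 decamers with no spacer, the C and G of each core kept and up to 3 mismatches allowed elsewhere, a rule set after the windows had been looked at. A match was found for 5 members, with 1 mismatch for Cdkn1a and Ccng1 and 3 mismatches for Bbc3, Aen and Trp53. The closest 20 bases had 5 mismatches for Phlda3, 7 for Bax and 9 for Mdm2. The window at another Cdkn1a start held no match (7 mismatches at the closest), nor did those at other Bbc3 starts (7 and 8). Of all 32851 windows of this length, 0.067% held a match with up to 1 mismatch and 1.38% one with up to 3. The stretches with the matches follow, read 5′ to 3′ on the strand of the gene, with the 20 bases of the element in capitals.
Cdkn1a, chr17:29090888-29090987, plus strand: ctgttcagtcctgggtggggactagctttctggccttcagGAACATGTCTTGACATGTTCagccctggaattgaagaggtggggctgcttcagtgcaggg
Ccng1, chr11:40755422-40755521, minus strand: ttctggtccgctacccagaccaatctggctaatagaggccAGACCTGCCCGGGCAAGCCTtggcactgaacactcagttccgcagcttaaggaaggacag
Bbc3, chr7:16309446-16309545, plus strand: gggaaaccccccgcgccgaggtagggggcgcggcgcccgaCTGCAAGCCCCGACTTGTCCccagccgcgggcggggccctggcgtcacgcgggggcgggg
Aen, chr7:78895897-78895996, plus strand: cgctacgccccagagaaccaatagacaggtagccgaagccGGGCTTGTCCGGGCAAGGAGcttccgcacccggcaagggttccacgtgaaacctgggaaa
Trp53, chr11:69580244-69580343, plus strand: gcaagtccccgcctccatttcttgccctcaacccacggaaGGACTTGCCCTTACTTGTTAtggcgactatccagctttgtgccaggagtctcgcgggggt
The centre of the element lay 41 bases upstream of a Cdkn1a start, 185 bases upstream of the Ccng1 start, 87 bases upstream of a Bbc3 start, 65 bases upstream of the Trp53 start, and 111 bases upstream of one Aen start and 20 bases downstream of another. On mm10, GENCODE M21 places these protein-coding genes at chr17:29090976-29100727 (Cdkn1a, plus strand), chr11:40748552-40755311 (Ccng1, minus strand), chr7:16308393-16318205 (Bbc3, plus strand), chr7:78895854-78911209 (Aen, plus strand) and chr11:69580359-69591873 (Trp53, plus strand). The other members lie at chr10:117688875-117710758 (Mdm2, minus strand), chr7:45461697-45466898 (Bax, minus strand), chr1:135766119-135769136 (Phlda3, plus strand), chr3:32334792-32366014 (Zmat3, minus strand) and chr4:11156431-11174379 (Trp53inp1, plus strand). A match in letters is not shown to be a bound site, and a window without one says nothing on elements elsewhere in the gene.

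Per unit of transcript length, Bax was the most abundant member in control total lysates. It averaged 253 ± 5.65 RPKM (SD, n = 4, as for the following values). Trp53 followed with 87.4 ± 10.4 and Phlda3 with 76.2 ± 9.05 RPKM, and these overlapped. Cdkn1a had 56.2 ± 3.47, Mdm2 50.6 ± 0.949 and Aen 48.4 ± 4.16 RPKM, where Aen overlapped both of the others and Cdkn1a stood above Mdm2. Bbc3 had 38.8 ± 2.41, Ccng1 11.6 ± 0.606, Zmat3 5.10 ± 0.229 and Trp53inp1 0.468 ± 0.131 RPKM, each apart from its neighbours. Between 96.5% and 32.1% of the genes with a mean of at least 0.5 RPKM in total lysate lay below the members from Bax to Zmat3, and 3.60% lay below Trp53inp1. Target mRNAs of p53 were thus well measured in control siRNA cells, with Trp53inp1 as the exception.

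The first question is whether the members changed when Chtop was depleted. In total lysate, 3 of the 9 members with counts rose in knockdown cells (Ccng1, Aen and Cdkn1a), 3 fell (Phlda3, Bbc3 and Trp53) and 3 did not pass the test (Bax, Mdm2 and Zmat3). Genes were tested by quasi-likelihood in edgeR, adjusted over all genes after Benjamini and Hochberg, and called at an adjusted p under 0.05. By this test 43.9% of all genes were called in total lysate, 21.4% higher and 22.6% lower, and the 6 called members of 9 lie in both directions. Without replicate 2 of the mEx5 or of the pEx5 control, 3 of 9 members were called, among 33.4% and 33.3% of all genes, so the members' count was then no higher than the share of all genes. The median log2 fold change of the 9 members was 0.11, against 0.01 for all genes. The members were not shifted one way, and the largest of the changes, that of Phlda3, was 1.37-fold.

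The arrest members Cdkn1a and Ccng1 were higher. Whether arrest genes rose as a class was not tested. The list of other targets taken below mixes arrest, repair and metabolism. Of its 18 genes tested on counts, 2 rose and 9 fell, where 43.9% of all genes were called. Cdkn1a, the p21 inhibitor of cyclin-dependent kinases, had 96.7 and 101 CPM (scaled by TMM factors) in the mEx5 and 101 and 117 in the pEx5 knockdown libraries. The mEx5 controls had 84.6 and 84.0, and the pEx5 controls 93.3 and 96.1. All 4 knockdown libraries were above all 4 controls, by little, and the pEx5 controls were above the mEx5 controls. On the log2 scale the fold change was 0.20 ± 0.06 (SE; edgeR adjusted p = 0.027). This call ended when any 1 of 6 libraries was left out (each of the 4 controls, mEx5 knockdown replicate 2 or pEx5 knockdown replicate 2), with log2 fold changes of 0.14 to 0.21 and edgeR adjusted p of 0.057 to 0.095. With limma on RPKM it was not called either (0.14 ± 0.06, limma adjusted p = 0.11), where the median of all genes with counts was -0.05. Ccng1, cyclin G1, an early known p53 target, had 28.7, 27.2, 30.6 and 29.97 CPM in knockdown (mEx5 first, then pEx5), against 23.2, 24.8, 22.4 and 22.6 in controls. Its groups did not overlap, and the log2 fold change of 0.31 ± 0.06 (edgeR adjusted p = 0.0024) was called with each library left out in turn.

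The gene of p53 was lower and its main antagonist was not called. Trp53 had 119, 130.4, 118 and 114 CPM in knockdown, against 154, 154, 131 and 124 in controls. In each line the knockdown libraries were below the controls, and over both lines the ranges overlapped, since the pEx5 controls lay lower than the mEx5 controls. Trp53 changed by -0.24 ± 0.05 on the log2 scale (edgeR adjusted p = 0.0057). Mdm2 had 82.3, 82.0, 83.9 and 81.6 CPM in knockdown, against 84.9, 85.3, 88.8 and 84.3 in controls. All 4 were below all 4 controls, but by a log2 fold change of only -0.08 ± 0.05, whose edgeR adjusted p of 0.23 did not pass. With limma on RPKM it was -0.13 ± 0.04 (limma adjusted p = 0.040), where the median of all genes with counts was -0.05. Over all genes, 39% had libraries of knockdown and control that did not overlap in total lysate, so this alone does not set Mdm2 apart.

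Of the apoptosis genes, Phlda3 changed most. It encodes a small lipid-binding protein that competes with the kinase Akt at the membrane. Phlda3 had 65.5, 74.6, 67.6 and 79.3 CPM in knockdown, against 87.9, 88.4, 102 and 113 in controls, with all knockdown libraries below all controls. The log2 fold change was -0.46 ± 0.09 (edgeR adjusted p = 0.0026), a level 1.37-fold lower in knockdown. Bbc3, the BH3-only activator Puma, had 35.3, 35.6, 34.5 and 38.1 in knockdown, against 39.5, 44.6, 39.8 and 43.5 in controls, again without overlap. Its log2 fold change was -0.24 ± 0.07 (edgeR adjusted p = 0.018). Without mEx5 control replicate 2, pEx5 control replicate 2 or pEx5 knockdown replicate 1 it was -0.21 to -0.19, with edgeR adjusted p of 0.067 to 0.081, and in 1 fit of all 35 libraries it was -0.22 and not called (edgeR adjusted p = 0.14).

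Aen, an exonuclease that promotes apoptosis, went the other way. It had 119.7, 101, 114 and 98.3 CPM in knockdown, against 92.7, 83.0, 101 and 85.8 in controls. The ranges overlapped, and in both conditions the first replicate of each line was the higher one. The log2 fold change of 0.24 ± 0.08 (edgeR adjusted p = 0.040) was no longer called without any 1 of 7 libraries: both mEx5 controls, both mEx5 rescues, mEx5 knockdown replicate 1, pEx5 control replicate 2 and pEx5 knockdown replicate 1. In those fits it was 0.18 to 0.28, with edgeR adjusted p of 0.051 to 0.14, and limma on RPKM gave 0.18 ± 0.08 (limma adjusted p = 0.12). Bax, the pore-forming protein of the outer mitochondrial membrane, had 194, 160.4, 164 and 151 in knockdown, against 156, 152, 150.4 and 153 in controls, where mEx5 knockdown replicate 1 stands above the rest. Its log2 fold change of 0.11 ± 0.07 did not pass (edgeR adjusted p = 0.25).

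Zmat3, an RNA-binding zinc finger protein, had 33.4, 32.5, 27.5 and 27.4 CPM in knockdown, against 27.7, 27.6, 26.5 and 25.5 in controls. The gap lay mostly in the mEx5 line, and the log2 fold change of 0.15 ± 0.06 missed the threshold (edgeR adjusted p = 0.052). With the replicate number (1 or 2) as a block it passed, at an edgeR adjusted p of 0.031, in a fit that called 62.9% of all genes. Trp53inp1, a stress protein that acts with p53, was near the lowest measurable level, with 0.39 ± 0.06 RPKM in knockdown and 0.47 ± 0.13 in control total lysates (SD, n = 4 each). It was below the filter on low values there (a mean of 0.5 RPKM) and was not tested in total lysate or nuclei.

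**Figure D1:**
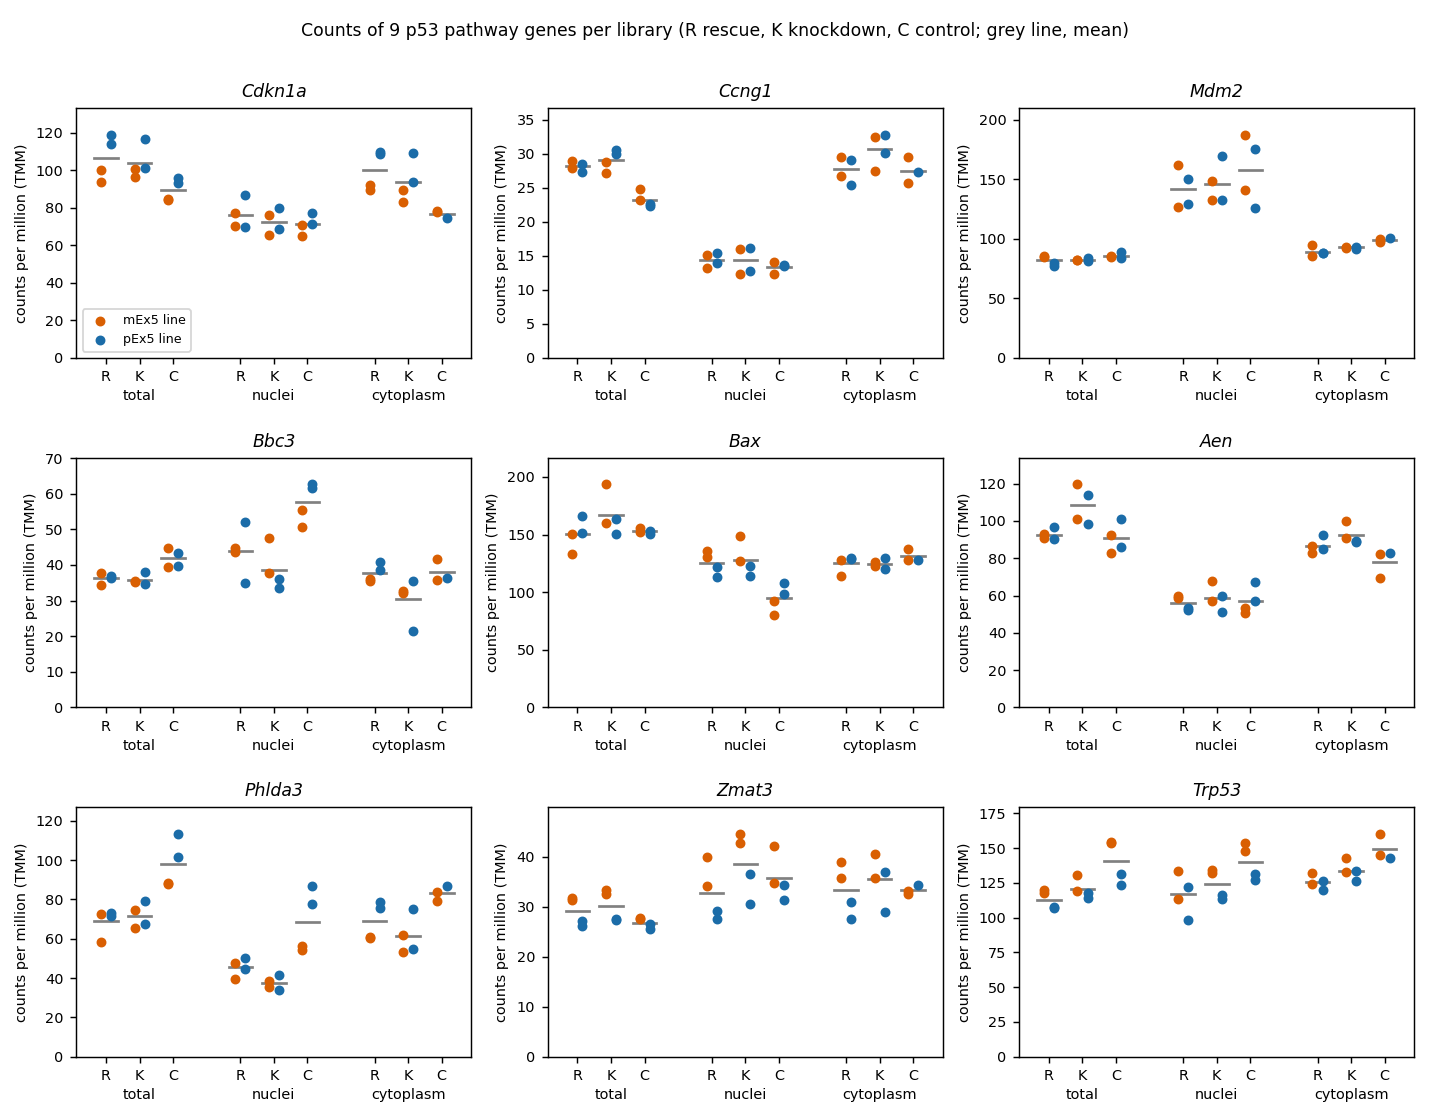
CPM (TMM-scaled, linear axis from 0) of 9 members in each library, by fraction, with rescue (R), knockdown (K) and control (C) from left to right, mEx5 in orange and pEx5 in blue, and the mean of each condition as a grey line. Nuclear Phlda3 lies between 33.7 and 41.6 in the 4 knockdown libraries and between 54.1 and 86.9 in the 4 controls.

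Fewer members were called in nuclei. There, 1 of 9 members rose in knockdown (Bax) and 2 fell (Phlda3 and Bbc3), where edgeR called 31.4% of all genes. All 3 kept their call with each nuclear library left out in turn. The count of 3 of 9 is near the share of all genes. The called members are apoptosis genes that changed in both directions, and Aen, also an apoptosis gene, was not called. Cdkn1a and Ccng1 had nuclear log2 fold changes of 0.03 ± 0.10 and 0.09 ± 0.12 (edgeR adjusted p = 0.85 and 0.60). Whether a member's response differed between total lysate and nuclei was not tested.

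Nuclear Phlda3 had 35.3 and 38.4 CPM in mEx5 and 33.7 and 41.6 in pEx5 knockdown nuclei. The mEx5 control nuclei had 54.1 and 56.1 and the pEx5 control nuclei 86.9 and 77.9, so the controls of the lines stood well apart while the knockdowns did not. On the log2 scale it fell by 0.86 with an SE of 0.10 (edgeR adjusted p = 3.1e-04), a level 1.81-fold lower in knockdown. By line it was -1.14 ± 0.14 in pEx5 and -0.58 ± 0.14 in mEx5 cells. The difference of -0.56 ± 0.19 between the lines did not pass over all genes (edgeR adjusted p = 0.72).

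Nuclear Bax had 148, 127, 123 and 114 CPM in knockdown, against 80.2, 91.9, 108 and 98.5 in control nuclei, without overlap, as in 29.8% of all genes. Its log2 fold change of 0.44 ± 0.08 (edgeR adjusted p = 0.0032) made it the one member that was called higher in nuclei. The value was 0.19 ± 0.12 in pEx5 and 0.68 ± 0.12 in mEx5 nuclei, and this difference of -0.49 ± 0.16 between the lines did not pass either (edgeR adjusted p = 0.72). With limma on RPKM the nuclear change of Bax was 0.30 and not called (limma adjusted p = 0.056). The median of all genes with counts was -0.13 there. Nuclear Bbc3 had 47.6, 37.6, 33.4 and 36.2 in knockdown, against 55.5, 50.7, 62.7 and 61.5 in controls, with all knockdown nuclei below all controls. Its log2 fold change was -0.58 ± 0.13 (edgeR adjusted p = 0.0066), equal to a 1.49-fold lower level.

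Nuclear Trp53 had 132, 134, 114 and 116 CPM in knockdown, against 154, 148, 127 and 132 in control nuclei. Within each line the knockdown nuclei were lower, and over both lines the groups overlapped. The log2 fold change of -0.18 ± 0.09 was not called (edgeR adjusted p = 0.15). The fit with a replicate block, which called 55.4% of all genes, gave an edgeR adjusted p of 0.023. Limma on RPKM gave -0.32 (limma adjusted p = 0.018), where the median of all genes with counts was -0.13. The remaining members had nuclear log2 fold changes of -0.11 for Mdm2, 0.05 for Aen and 0.10 for Zmat3, none past the test.

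In cytoplasm 2 members were called, Cdkn1a higher and Phlda3 lower, among 40.7% of all genes called by edgeR. Cdkn1a had 83.3, 89.3, 93.9 and 109 CPM in knockdown, against 78.0, 77.5 and 74.8 in control cytoplasm, and its groups did not overlap. The log2 fold change was 0.29 ± 0.08 (edgeR adjusted p = 0.0097). Phlda3 had 53.1, 61.9, 54.8 and 75.0 in knockdown, against 83.8, 79.3 and 86.6 in controls, also without overlap. Its log2 fold change was -0.46 ± 0.10 (edgeR adjusted p = 0.0048). Both calls held with each library left out that could be left out. These comparisons rest on 1 pEx5 control library, which the fit takes to vary like the other groups.

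The other cytoplasmic values did not pass. Aen had 99.9, 90.8, 88.9 and 89.4 CPM in knockdown, against 82.1, 69.2 and 82.9 in controls, with no overlap and a log2 fold change of 0.22 ± 0.08 (edgeR adjusted p = 0.052; DESeq2 adjusted p = 0.042). Bbc3 had 32.6, 32.01, 21.4 and 35.4 in knockdown, against 35.8, 41.8 and 36.4 in controls, where pEx5 knockdown replicate 1 was the lowest of all. Its log2 fold change was -0.31 ± 0.14 (edgeR adjusted p = 0.10), and it was -0.52 and called without pEx5 knockdown replicate 2 (edgeR adjusted p = 2.5e-04, 47.4% of all genes called). In cytoplasm, 43.1% of all genes had knockdown and control libraries that did not overlap. Trp53inp1 could be tested here on RPKM, with 0.82, 0.56, 0.64 and 0.64 in knockdown and 0.92, 1.29 and 0.63 in controls, and its difference of -0.30 ± 0.27 on the log2(RPKM + 0.1) scale did not pass (limma adjusted p = 0.43, where limma called 37.7% of all genes).

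**Figure D2:**
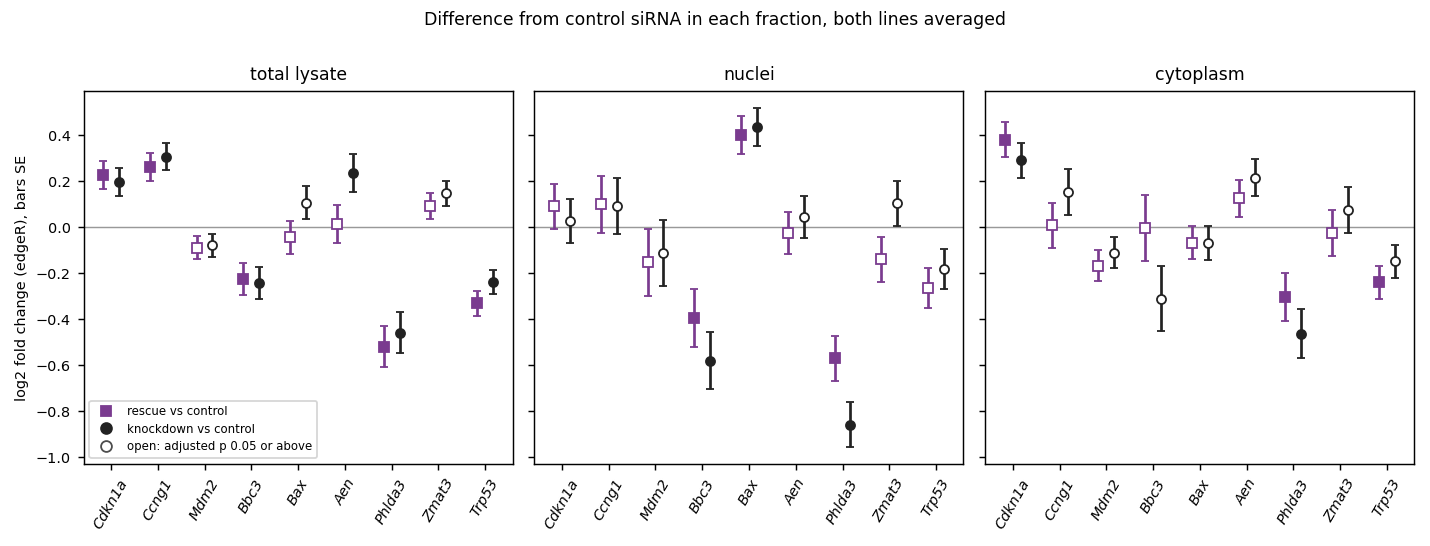
Log2 fold change from control siRNA with its SE for 9 members (edgeR, both lines averaged) in total lysate, nuclei and cytoplasm, with rescue against control as squares on the left of each pair and knockdown against control as circles on the right. Filled symbols passed the adjusted p of 0.05, and nuclear Phlda3 has the lowest value, -0.86 in knockdown nuclei. Both symbols of a gene rest on the same control libraries.

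The rescue asks whether siRNA-resistant Chtop changes a member against the knockdown alone. Without a replicate block no member was called. By edgeR it was 0 of 9 in total lysate, in nuclei and in cytoplasm, where 0.0217%, 0.0108% and 0.0433% of all genes were called. By DESeq2 it was 0 of 9 in each fraction, where 0.238%, 0.682% and 0.227% were. The block called 1 member in total lysate and 1 in nuclei, among 1.84% and 6.84% of all genes, as given below. At an unadjusted p under 0.05 edgeR had 1 member in total lysate (Aen), 2 in nuclei (Phlda3 and Zmat3) and 1 in cytoplasm (Bbc3). The lack of calls does not show that rescue and knockdown cells were alike. Approximate 95% intervals of the 9 log2 differences reached from -0.39 to 0.15 in total lysate, -0.43 to 0.48 in nuclei and -0.32 to 0.56 in cytoplasm. They come from the SE by a normal approximation, which makes them too narrow for so few libraries.

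The values of those members show what lay behind these p-values. Aen had 90.7, 93.2, 96.8 and 90.2 CPM in rescue, against 119.7, 101, 114 and 98.3 in knockdown total lysates, and all rescues were lower. In total lysate 3.19% of all genes had rescue and knockdown libraries that did not overlap. The log2 difference was -0.22 ± 0.08 (edgeR adjusted p = 0.68), and under the replicate block it was -0.22 ± 0.05 and called (edgeR adjusted p = 0.048), as were 1.84% of all genes. Nuclear Phlda3 had 39.7, 47.7, 50.4 and 44.6 in rescue, against 35.3, 38.4, 33.7 and 41.6 in knockdown, higher within each line and overlapping over both. Its log2 difference of 0.29 ± 0.10 (edgeR adjusted p = 0.53) was called under the replicate block, at an edgeR adjusted p of 0.035, as were 6.84% of all genes.

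Nuclear Zmat3 had 34.2, 39.9, 29.1 and 27.5 CPM in rescue, against 42.8, 44.6, 36.6 and 30.7 in knockdown nuclei, lower within each line. The log2 difference was -0.24 ± 0.10 (edgeR adjusted p = 0.57). Cytoplasmic Bbc3 had 35.9, 35.6, 41.0 and 38.5 in rescue, against 32.6, 32.01, 21.4 and 35.4 in knockdown, and all 4 rescues were higher, as in 4.46% of all genes without overlap. Its log2 difference of 0.31 ± 0.13 rested in part on the low pEx5 knockdown replicate 1 (edgeR adjusted p = 0.51). Without pEx5 knockdown replicate 2, which leaves the low library alone in its group, Bbc3 had 0.52 (edgeR adjusted p = 0.0018) and Phlda3 0.28 (edgeR adjusted p = 0.025), and both were called, in a fit that called 14.1% of all genes. Each other fit with 1 library left out called at most 5 genes between rescue and knockdown in these 3 fractions, and no member.

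Set against control cells instead, rescue cells kept several differences, and these share their control libraries with the knockdown comparisons. In total lysate 2 members were higher in rescue (Ccng1 and Cdkn1a) and 3 lower (Phlda3, Trp53 and Bbc3), where edgeR called 37.3% of all genes. Ccng1 had 27.97, 28.99, 27.3 and 28.5 CPM in rescue, all above the 4 controls, with a log2 fold change of 0.26 ± 0.06 (edgeR adjusted p = 0.0069). Phlda3 had 58.4, 72.5, 71.6 and 73.2, all below the controls, with -0.52 ± 0.09 (edgeR adjusted p = 0.0017). Trp53 had 118, 120.0, 107 and 108, all below the controls, with -0.33 ± 0.05 (edgeR adjusted p = 0.0012). Of all genes, 36.5% had no overlap between rescue and control total lysates. These 3 calls held with each library left out.

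Cdkn1a and Bbc3 were less steady in this comparison. Cdkn1a had 93.5 and 99.9 CPM in mEx5 and 119 and 114 in pEx5 rescue total lysates, above the controls of the same line, with a log2 fold change of 0.23 ± 0.06 (edgeR adjusted p = 0.017). Without mEx5 control replicate 2 or mEx5 rescue replicate 2 the value was 0.20 to 0.23 and the edgeR adjusted p 0.053 to 0.058, and limma on RPKM gave 0.16 (limma adjusted p = 0.068). Bbc3 had 37.8, 34.5, 36.2 and 37.0 in rescue, all below the controls, with -0.22 ± 0.07 (edgeR adjusted p = 0.030). It was not called without mEx5 control replicate 2, mEx5 rescue replicate 2, pEx5 control replicate 2 or either pEx5 rescue replicate, at -0.23 to -0.18 and edgeR adjusted p of 0.059 to 0.12, nor with library totals or in 1 fit of all 35 libraries (-0.20 in both, edgeR adjusted p = 0.074 and 0.19).

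In nuclei, Bax was higher in rescue than in control cells and Phlda3 and Bbc3 lower, among 23.7% of all genes called by edgeR. Bax had 131, 135, 122 and 113 CPM in rescue nuclei, all above the controls (23.7% of all genes had no overlap here either), with a log2 fold change of 0.40 ± 0.08 (edgeR adjusted p = 0.0071; limma on RPKM adjusted p = 0.068). Phlda3 fell by 0.57 on the log2 scale with an SE of 0.10 (edgeR adjusted p = 0.0034). Bbc3 had 44.9, 43.7, 51.9 and 35.0 in rescue nuclei, which overlapped the controls over both lines, with -0.40 ± 0.13 (edgeR adjusted p = 0.045). That call was lost without any 1 of 9 libraries, namely each of the 4 controls, both mEx5 rescues, pEx5 rescue replicate 2 or either pEx5 knockdown replicate, at -0.43 to -0.27 and edgeR adjusted p of 0.060 to 0.13. Nuclear Trp53 had -0.26 ± 0.09 (edgeR adjusted p = 0.054), and under a replicate block an edgeR adjusted p of 0.0021, where 49.8% of all genes were called. DESeq2 and limma on RPKM also called it, at adjusted p of 0.026 and 0.012. On RPKM the median of all genes with counts was -0.11 for rescue against control in nuclei.

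In cytoplasm, Cdkn1a was higher in rescue than in control cells and Phlda3 and Trp53 lower, among 35.7% of all genes. Cdkn1a had 89.6, 92.3, 109.9 and 108 CPM in rescue cytoplasm, all above the 3 controls, with a log2 fold change of 0.38 ± 0.08 (edgeR adjusted p = 0.0028), and its call held with each library left out. Rescue and control cytoplasm did not overlap in 43.7% of all genes. Trp53 had 124, 132, 126 and 120.1 in rescue, against 145, 160.4 and 143 in controls, with -0.24 ± 0.07 (edgeR adjusted p = 0.023). Phlda3 had 60.8, 60.2, 78.9 and 75.7 in rescue, all below the controls, with -0.30 ± 0.10 (edgeR adjusted p = 0.042). Trp53 was not called without mEx5 control replicate 2, mEx5 rescue replicate 1 or pEx5 rescue replicate 2 (-0.22 to -0.20, edgeR adjusted p 0.065 to 0.080), and Phlda3 not without any 1 of 6 libraries, both mEx5 controls and all 4 rescues (-0.32 to -0.28, edgeR adjusted p 0.065 to 0.11). With library totals in place of TMM, Cdkn1a was the 1 cytoplasmic call.

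The mEx5 and pEx5 cDNAs differ by exon 5 of Chtop, and the lines were compared for every member. None of 28 differences between the lines was called for knockdown against control, for rescue against knockdown or for rescue against control. They are those of 9 members in 3 fractions by edgeR, where 0% of genes were called, and that of cytoplasmic Trp53inp1 by limma, where 0.0148%, 0.0223% and 0.0223% were. At an unadjusted p under 0.05 there were 3, 1 and 3 of 28. For rescue against knockdown, the 1 was Bax in total lysate, with 133 and 151 CPM in mEx5 and 166 and 152 in pEx5 rescue, and a line difference of 0.34 ± 0.15 (edgeR adjusted p = 1.00). By line, the pEx5 knockdown in total lysate called Ccng1 (0.42 ± 0.08) and Phlda3 (-0.56 ± 0.13), among 25.5% of all genes, and the mEx5 knockdown called Trp53 (-0.33 ± 0.08), among 23.7%.

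The fractions also show where the members' transcripts lie. Under control siRNA, Mdm2 and Bbc3 were higher in nuclei than in cytoplasm and Ccng1, Aen, Bax and Phlda3 lower, by edgeR, which called 69.9% of all genes in this comparison. Mdm2 had 188, 141, 176 and 126 CPM in control nuclei, against 97.1, 100.1 and 101 in control cytoplasm, all higher, with a log2 ratio of 0.64 ± 0.13 (edgeR adjusted p = 4.6e-04). Replicate 1 of each line had the higher nuclear Mdm2 value. Bbc3 had a log2 ratio of 0.60 ± 0.16 (edgeR adjusted p = 0.0028).

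Ccng1 was the most cytoplasmic member. It had 14.1, 12.4, 13.5 and 13.6 CPM in control nuclei, against 29.5, 25.7 and 27.4 in control cytoplasm, with a log2 ratio of -1.05 ± 0.12 (edgeR adjusted p = 1.2e-06). The log2 ratios of Aen (-0.50 ± 0.09), Bax (-0.48 ± 0.08) and Phlda3 (-0.33 ± 0.11) were also called (edgeR adjusted p = 1.6e-04, 6.7e-05 and 0.014). Cdkn1a, Trp53 and Zmat3 had log2 ratios of -0.12, -0.10 and 0.07 and were not called. On RPKM the median log2 ratio of all genes with counts was -0.43. There Zmat3 had -0.33 and was called lower by limma (adjusted p = 0.026), a sign opposite to that on counts but a value above this median. On that scale Mdm2 and Bbc3 had 0.23 and 0.20 and were not called (limma adjusted p = 0.19 and 0.32), and Cdkn1a and Trp53 had -0.51 and -0.49 and were called lower (limma adjusted p = 8.7e-04 and 6.7e-05). Set against the median of -0.43, Mdm2 and Bbc3 stayed above the typical gene, and Zmat3 lay a little above it. Cdkn1a and Trp53 were within 0.1 of it. The authors' deposited table gives log2 ratios of nuclei over cytoplasm under control siRNA of 0.69 for Mdm2, 0.79 for Bbc3 and -1.44 for Ccng1. The value of Ccng1 is lower than the -1.05 of the counts. For Phlda3 the same table gives 0.01, higher than the -0.33 of the counts. Bax and Aen have -0.48 and -0.52 there, near their values on counts. The authors' scaling of the fractions is not stated in the labels, and the cause of the 2 gaps in opposite directions was not tested.

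Knockdown moved the nuclear to cytoplasmic ratio of 1 member. The ratio of Bax was higher in knockdown than in control cells by 0.52 ± 0.11 on the log2 scale (edgeR adjusted p = 0.014), among 5.14% of all genes called. This fit took nuclei and cytoplasm as independent libraries, although both were separated from the same cells. With the replicate number as a block 1 of 9 members was called as well, among 12.9% of all genes. As the values above show, Bax stood at 148, 127, 123 and 114 CPM in knockdown nuclei and at 123, 126, 119.8 and 129.5 in knockdown cytoplasm. In control cells it had 80.2, 91.9, 108 and 98.5 in nuclei and 138, 128 and 128 in cytoplasm, so nuclei and cytoplasm overlapped in knockdown and not in control cells. Without cytoplasmic mEx5 knockdown replicate 1 the value was 0.49 (edgeR adjusted p = 0.051), and limma on RPKM did not call it (limma adjusted p = 0.088). On RPKM the change of Bax was 0.42, where the median of all genes with counts was -0.09. The change of Phlda3 was -0.38 ± 0.15 and that of Cdkn1a -0.25 ± 0.13 on counts, neither called (edgeR adjusted p = 0.16 and 0.27). In the authors' deposited table the change of the ratio in knockdown is 0.45 for Bax and -0.47 for Phlda3. For rescue against knockdown 0 of 9 ratios were called by edgeR, among 0.0216% of all genes, 0 at an unadjusted p under 0.05 and 0 by DESeq2.

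**Figure D3:**
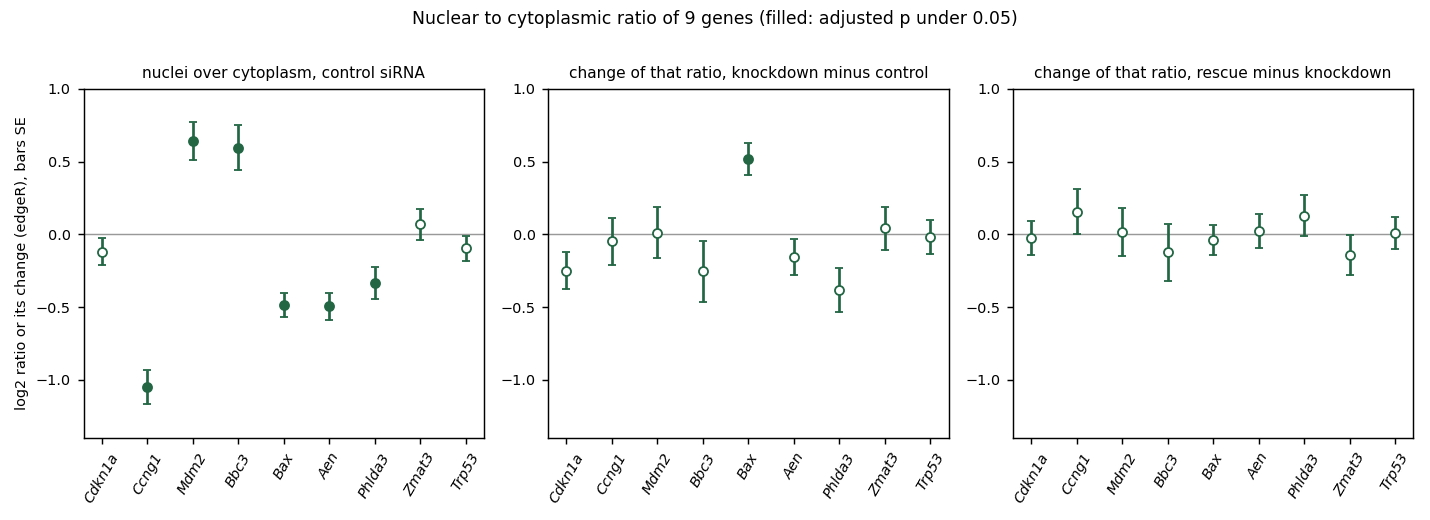
Log2 ratio of nuclei over cytoplasm under control siRNA (left), its change in knockdown against control (middle) and its change in rescue against knockdown (right) for 9 members, edgeR estimates with SE, filled where the adjusted p is under 0.05. Ccng1 has the lowest ratio, -1.05, and Bax is the one filled symbol in the middle, at 0.52.

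In the authors' deposited table a mark records overlap with Chtop iCLIP, a map of where the protein touches RNA. Of the 9 members, 3 carry the mark (Bbc3, Bax and Mdm2), which is 33.3%, against 4484 of 9239 genes, or 48.5%, in the table. The marked members are 1 that rose in nuclei, 1 that fell there and 1 that did not pass the test. Exons of Cdkn1a overlap those of another annotated gene on the opposite strand, and exons of Bax those of Gm45808 on the same strand. Neither overlapping gene is in the count table, and how reads in the shared stretches were assigned is not stated in the labels.

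The wider pathway was followed through 4 lists. They were chosen with earlier results of these data known, so their medians and shares of called genes only describe the lists. Of the other p53 targets for arrest, repair and metabolism, 18 of 25 were tested on counts, and in knockdown total lysate 2 rose and 9 fell, with a median log2 fold change of -0.33 against 0.01 for all genes. The lowest were Ephx1, an epoxide hydrolase, at -1.75 ± 0.21, Gdf15, a secreted stress factor, at -0.87 ± 0.06, Gadd45a, a growth arrest and repair protein, at -0.83 ± 0.14, and Rrm2b, the p53-induced subunit of ribonucleotide reductase, at -0.80 ± 0.08. The genes that rose were Sesn2, a sestrin that restrains mTORC1, at 0.63 ± 0.08, and Ppm1d, a phosphatase that turns p53 signalling off, at 0.23 ± 0.07. In nuclei 1 rose and 7 fell and in cytoplasm 1 rose and 8 fell, with medians of -0.15 and -0.35. A further 5 genes were tested by limma on RPKM alone. Of these 0 rose and 1 fell in total lysate, 1 rose and 2 fell in nuclei, and 0 were called in cytoplasm. Limma called 39.9%, 31.3% and 37.7% of all genes there. The gene that rose in nuclei was Ddb2, by 0.90 ± 0.13 on the log2(RPKM + 0.1) scale (limma adjusted p = 0.0018). The share of called genes in total lysate, 11 of 18, is to be read against the 43.9% of all genes, 22.6% of them lower. In nuclei edgeR called 31.4% of all genes, 16% lower, and in cytoplasm 40.7%, 20.9% lower.

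Gdf15 fell in knockdown nuclei by 1.21 and in knockdown cytoplasm by 0.93 on the log2 scale, and Ephx1 by 1.42 and 1.55. Gadd45a fell by 0.41 in nuclei and 1.08 in cytoplasm. Rrm2b fell by 1.01 in cytoplasm and had -0.31 ± 0.15 in nuclei, which was not called (edgeR adjusted p = 0.14), and its nuclear to cytoplasmic ratio rose by 0.71 ± 0.18 (edgeR adjusted p = 0.036). Sesn2 showed the reverse order, with 0.75 ± 0.10 in cytoplasm, -0.08 ± 0.10 in nuclei and a fall of its ratio by 0.81 (edgeR adjusted p = 0.0066). In rescue against knockdown 0 of the 18 were called by edgeR in each fraction, with 1, 4 and 1 at an unadjusted p under 0.05 in total lysate, nuclei and cytoplasm.

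Of the apoptosis list, 14 of 22 genes were tested on counts and 5 rose and 4 fell in knockdown total lysate, with a median of 0.08, where 43.9% of all genes were called. Ei24, a membrane protein induced by p53, had 0.38 ± 0.06 and Apaf1, the scaffold of the apoptosome, 0.37 ± 0.13, while Trp53i11, a p53-inducible gene, had -0.86 ± 0.21 and Trp53inp2, a relative of Trp53inp1 that acts in autophagy, -0.25 ± 0.07. Bak1, the partner of Bax in the mitochondrial membrane, had -0.23 ± 0.08. On RPKM, Bcl2l11, the BH3-only protein Bim, rose by 0.95 ± 0.14 on the log2(RPKM + 0.1) scale (limma adjusted p = 7.2e-04), and Bcl2, which holds such proteins back, by 0.44 ± 0.10 (limma adjusted p = 0.0096), where limma called 39.9% of all genes. Puma and Bim, both activators of Bax, thus changed in opposite directions. In nuclei 3 of the 14 rose and 1 fell, and in cytoplasm 2 rose and 3 fell, against 31.4% and 40.7% of all genes called there.

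Of the regulators of p53, 28 of the 31 found by name were tested on counts, and 8 rose and 5 fell in knockdown total lysate, with a median of 0.06, a share near the 43.9% of all genes. Hipk2, a kinase of p53, rose by 0.87 ± 0.07, Sirt1, a deacetylase of p53, by 0.53 ± 0.14 and Atm, a kinase of the DNA damage response, by 0.38 ± 0.11. Atr, the kinase of the replication stress response, fell by 0.76 on the log2 scale and Mdm4, the relative of Mdm2 that restrains p53, by 0.63. In nuclei 3 rose and 3 fell, a smaller share than the 31.4% of all genes, and in cytoplasm 7 rose and 6 fell, against 40.7%. Rpl5, a ribosomal protein that binds Mdm2, had -0.35 ± 0.09 in total lysate, -0.50 ± 0.09 in cytoplasm and 0.30 ± 0.10 in nuclei, and its nuclear to cytoplasmic ratio rose by 0.81 ± 0.14 (edgeR adjusted p = 0.0035).

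Among the targets and partners of p21, 19 of 21 were tested on counts, and 5 rose and 0 fell in knockdown total lysate, with a median of 0.16. That is fewer than the 43.9% of all genes called, and the higher calls are near the 21.4% of all genes called higher. At an unadjusted p under 0.05, 9 were higher and 2 lower there. Rbl2, a pocket protein, was the 1 gene called lower in nuclei, at -0.47 ± 0.13 (edgeR adjusted p = 0.022). E2f1, the transcription factor released by Rb, rose by 0.55 ± 0.05, Ccnd3, cyclin D3, by 0.54 ± 0.06, Lin52 of the DREAM complex by 0.34 ± 0.11 and Cdk4 by 0.27 ± 0.06. In nuclei 6 of the 19 rose and 1 fell, and in cytoplasm 6 rose and 0 fell (0 lower at an unadjusted p under 0.05). In either direction 31.4% of all genes were called in nuclei, a share near that of this list, and 40.7% in cytoplasm, a larger share. Called higher were 15.4% of all genes in nuclei and 19.8% in cytoplasm, smaller shares than 6 of 19. Whether the list differs from all genes was not tested. E2f1 was higher in all 3 fractions, with 0.41 ± 0.08 in nuclei and 0.46 ± 0.07 in cytoplasm. Ccnd3 rose in cytoplasm by 0.73 ± 0.10, had -0.06 ± 0.12 in nuclei, and its nuclear to cytoplasmic ratio fell by 0.78 (edgeR adjusted p = 0.018).

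**Figure D4:**
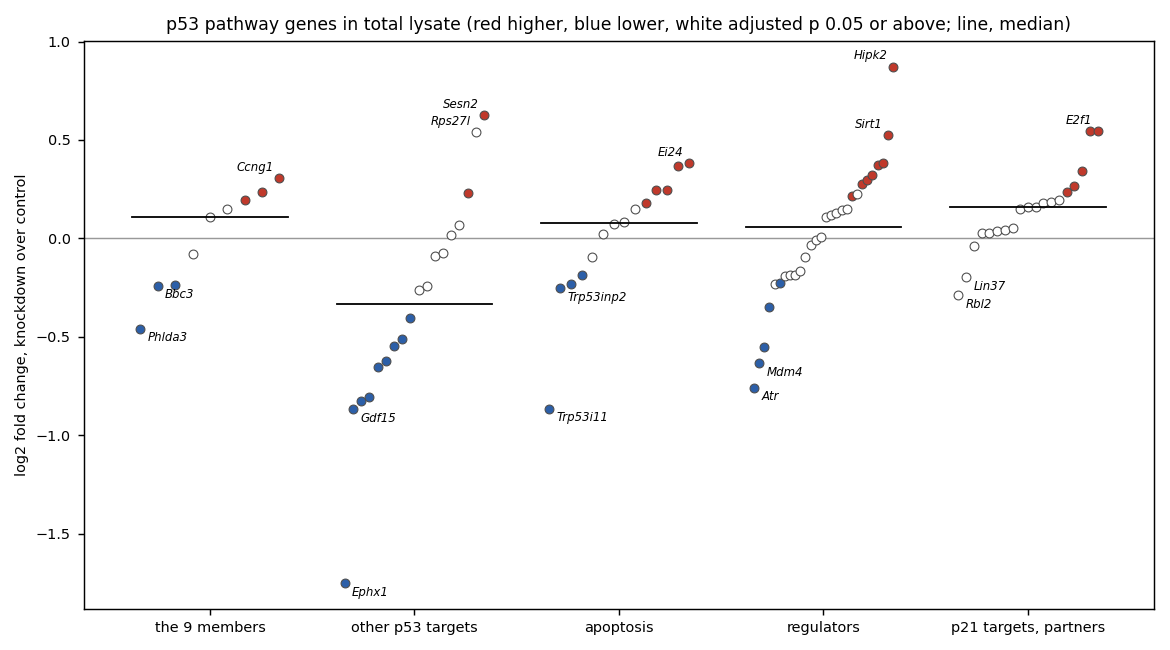
Log2 fold change of knockdown over control in total lysate (edgeR) for the 9 members and for 4 lists of other p53 pathway genes, each point 1 gene in order of its value, red where called higher, blue where called lower, white where not called, with the median as a line. The lowest point is Ephx1 at -1.75, and the median of the other targets is -0.33.

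The genes whose pattern was most like a member's were listed for the best-known target and for the gene of p53, by Pearson correlation of log2 CPM over 35 libraries after the mean of each fraction was taken out. For Cdkn1a they were Retsat (0.84), Pkdcc (0.82), Dtx1 (0.82), Bahd1 (0.81) and Zcchc4 (0.80). For Trp53 they were Stk32a (0.86), Scd2 (0.83), Eif4ebp2 (0.83), Gpc1 (0.83) and Mapre2 (0.83). The libraries share lines, conditions and replicate numbers, so these correlations only describe the table.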

How the data were processed

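The deposited files used were a table of gene counts, a table of RPKM values and the authors' table of log2 ratios of nuclei over cytoplasm with an iCLIP mark. The counts were deposited as whole numbers and the RPKM by the authors as reads scaled to transcript length and depth, with Salmon 0.14.1, DESeq2 and mm10 named in the submitters' processing notes without their roles, and 1 RPKM column was not used. The labels do not say how the genes of the count table were chosen. Members were found by gene name and joined to the counts by gene ID. The members and gene lists were chosen with earlier results of these data known.

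Counts were fitted per fraction over 6 groups with edgeR 4.0.16 in R 4.3.3 (filterByExpr, TMM, robust quasi-likelihood test), and nuclei and cytoplasm together for ratios, each comparison averaged over both lines. A gene was called at a Benjamini-Hochberg adjusted p under 0.05. Trp53inp1 and list genes without counts were fitted with limma 3.58.1 on log2(RPKM + 0.1) over genes with a mean of at least 0.5 RPKM. DESeq2 1.42.0 was an alternative. The scripts were tested on simulated data. CPM of single libraries were scaled by TMM over all 35. The labels call the replicates biological.

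Libraries with the same replicate number deviated together in total lysate (15 of 15 pairs of groups, r 0.355 to 0.803) and nuclei (15 of 15, r 0.532 to 0.725) and less so in cytoplasm (7 of 10 over 0.1), so fits with the number as a replicate block stand beside the results for the first 2 fractions. Of each list, up to 4 called genes per direction with the largest changes were named. Alternatives were another tool, other scaling, no filter, the block, a pseudocount of 1, RPKM for all members, 1 fit of all libraries and leaving out each library.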

Additional observations from a re-analysis of the deposited data

How the results depend on the processing

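The counts of called members by comparison were within 1.5 times of those reported under DESeq2, DESeq2 size factors, no filter and 1 fit of all 35 libraries. The pseudocount of 1 was applied to Trp53inp1 alone, and members were not counted under it. The replicate block called 7 of 9 members for knockdown in total lysate and 4 of 9 in nuclei, among 62.9% and 55.4% of all genes. For rescue against knockdown it called 1 member (Aen) in total lysate and 1 (Phlda3) in nuclei. In cytoplasm it called 5 of 9 for knockdown, where Bbc3, Aen and Trp53 were added and 49.5% of all genes were called. The main fits took no fraction as paired by replicate number. In cytoplasm 7 of 10 pairs of groups, and not all, had a correlation over 0.1, which does not show that these libraries were unpaired. The block changed the calls of 8 member values, all from not called to called. Library totals left 1 call for rescue against control in cytoplasm, and limma on RPKM left 0 for the change of the nuclear to cytoplasmic ratio in knockdown. The nuclear to cytoplasmic ratio of Zmat3 turned to -0.33 on RPKM, which is above the RPKM median of -0.43 for all genes with counts. Limma on RPKM, which changes both the tool and the measure, changed the call or sign of 16 member values. On RPKM the median of all genes with counts was -0.13 for knockdown and -0.11 for rescue against control in nuclei and -0.43 for nuclei against cytoplasm. In total lysate it was -0.05 for knockdown and -0.05 for rescue against control, and for the ratio change in knockdown -0.09. These medians were not taken out of the RPKM values.

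With 1 library left out, the called members for knockdown against control numbered 3 to 6 in total lysate, 3 to 3 in nuclei and 2 to 3 in cytoplasm. For rescue against knockdown they numbered 0 to 0, 0 to 0 and 0 to 2, and for rescue against control 3 to 5, 2 to 3 and 1 to 3. For nuclei against cytoplasm they numbered 6 to 7, and for the change of the ratio 0 to 1 in knockdown and 0 to 0 in rescue. The causes were not tested. Without the 1 cytoplasmic pEx5 control, comparisons over both lines that use cytoplasmic controls could not be fitted. Trp53inp1, at a mean of 0.468 RPKM in control total lysates, limits what can be said of it.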
